A study of Rattus norvegicus with 12 samples.

Results

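The genes of the KEGG pathway of ribosome biogenesis in eukaryotes (rno03008) encode the proteins that build the ribosome, as distinct from the proteins the finished ribosome is made of. They were taken from the pathway column deposited beside the gene values, as every gene that carries rno03008 and not the ribosome pathway rno03010, and 77 of 21556 genes met this rule. No gene carried both identifiers. A mean level of at least 0.5 FPKM (read fragments scaled by the length of the gene and by the mapped fragments of the library) over all libraries was asked for a test, and 71 of the 77 genes reached it, among 11451 tested genes in all. The filter used the mean over the 12 libraries and not any 1 group.

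Ribosomes are assembled in the nucleolus. RNA polymerase I makes a long precursor that small nucleolar ribonucleoproteins (snoRNPs) modify, a large assembly of UTP complexes known as the small subunit processome folds and cuts, and nucleases trim. The pre-40S and pre-60S particles are then matured by kinases, ATPases and GTPases and carried through the nuclear pore by the export receptor Xpo1 with the GTPase Ran. Ribosome production is a large share of the work of a growing cell and is widely known to be tied to growth signals, of which the transcription factor Myc is the textbook example.

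RNA came from ND7/23 cells, which are a fusion of mouse N18Tg2 neuroblastoma cells with dorsal root ganglion neurons of the rat, in 12 libraries of 4 groups with 3 libraries each. The groups were control, menthol at 100 μM (it opens the cold receptor TRPM8), Wnt3a at 100 ng/ml (a ligand that switches on Wnt/β-catenin signalling) and the combination of menthol with Wnt3a at those doses, and the labels give 6 h for every group. The question of the design was how menthol acts on its own and on cells stimulated with Wnt3a. All groups are 1 cell line. The methods speak of biological duplication without saying whether each library came from its own culture, so the p-values measure the spread between these libraries, which may be technical.

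The libraries held 36914722 to 38837023 reads on genes, and no pair within a group differed by as little as sampling noise (chi-square per degree of freedom 3.48 to 7.27). Of the markers of sensory neurons, Uchl1 (94.2 to 111 FPKM) and Isl1 (9.28 to 17.6 FPKM) were present, while Prph, Tubb3, Nefl, Nefm, Stmn2, Gap43 and Pou4f1 had at most 12 reads in any library. Reads were mapped to a rat genome, so reads of the mouse part of the hybrid count only as far as they aligned to it. Axin2, a standard target of Wnt signalling, was at 4.55 to 5.28 FPKM in the 6 libraries without Wnt3a and at 6.56 to 8.71 FPKM in the 6 with it.

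In limma no ribosome biogenesis gene changed past the threshold in any comparison. On log2(FPKM + 0.1), with Benjamini-Hochberg adjustment over all 11451 genes, 0 of 71 genes had an adjusted p under 0.05 for menthol against control, Wnt3a against control, the combination against control, against Wnt3a or against menthol, the average effects of menthol and of Wnt3a, their interaction, or any difference among the 4 groups. The smallest adjusted p was 0.0577, for the average effect of Wnt3a on Rcl1. With limma voom on the recovered read counts, Nol6 passed for Wnt3a against control (adjusted p = 0.0250) and for any difference (0.0192), and Rcl1 (0.0400) and Nol6 (0.0456) passed for the average effect of Wnt3a. The ratio of the highest to the lowest group mean had a median of 1.07 over the 71 genes and was at most 1.17. In bulk RNA, fewer cells of a type and less RNA per cell cannot be told apart.

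The promoters of 3 members are shown because their genes lay nearest to the threshold for Wnt3a: Nol6 and Rrp7a, partners in the UTP-C complex that were lower with Wnt3a, and Rcl1, a factor of early small subunit assembly that was higher. Each window runs from 250 bases before to 50 bases after the start of the gene in RefSeq (rat build GRCr8), 5′ to 3′ on the strand of the gene. Capitals mark CACGTG, the E-box that the Myc family of factors is known to bind, and CCGGAAG or its reverse complement CTTCCGG, a core that ETS factors are known to bind. The Nol6 window is chr5:61066255-61066554 on the minus strand, the Rrp7a window chr7:116152815-116153114 on the minus strand and the Rcl1 window chr1:236237865-236238164 on the plus strand.
Nol6: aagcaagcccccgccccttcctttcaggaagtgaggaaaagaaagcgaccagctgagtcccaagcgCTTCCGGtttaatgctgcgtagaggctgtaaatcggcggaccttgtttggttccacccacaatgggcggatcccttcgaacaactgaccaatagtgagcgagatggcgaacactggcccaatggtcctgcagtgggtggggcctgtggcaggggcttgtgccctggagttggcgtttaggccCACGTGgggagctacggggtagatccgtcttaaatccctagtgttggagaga
Rrp7a: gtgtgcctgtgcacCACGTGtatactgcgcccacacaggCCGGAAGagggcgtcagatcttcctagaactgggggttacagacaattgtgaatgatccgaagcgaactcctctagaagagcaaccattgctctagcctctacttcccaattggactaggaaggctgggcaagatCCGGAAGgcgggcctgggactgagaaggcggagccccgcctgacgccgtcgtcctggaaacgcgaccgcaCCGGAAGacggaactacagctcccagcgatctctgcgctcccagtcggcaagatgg
Rcl1: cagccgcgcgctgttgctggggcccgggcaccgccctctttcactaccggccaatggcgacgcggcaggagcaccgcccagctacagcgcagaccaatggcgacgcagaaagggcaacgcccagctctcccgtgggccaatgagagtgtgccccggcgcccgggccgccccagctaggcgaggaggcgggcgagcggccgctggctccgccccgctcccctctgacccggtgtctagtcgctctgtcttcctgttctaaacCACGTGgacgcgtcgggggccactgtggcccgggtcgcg

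The E-box stood at the start site of Nol6 (first base at -2), far upstream of that of Rrp7a (-236) and just after that of Rcl1 (11), counted from the first transcribed base as 0. RefSeq lists 2 starts for Rcl1, and the window of the other did not hold it. Of the 71 tested genes, 60 had a promoter window in the table. CACGTG, which reads the same on both strands, was in 15 of the 60 (25.0%), against 961 of 9363 tested genes with a window (10.3%) and 7.08% of all 27457 genes of the table. CCGGAAG on either strand was in 31 of the 60 (51.7%), against 19.7% of the tested genes.

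Genes with and without the E-box were set side by side. With Wnt3a against control, the 15 genes with CACGTG had a median log2 change of 0.010 (8 higher, 7 lower), and the 45 without it had a median of -0.022 (20 higher, 25 lower). With menthol against control the medians were 0.013 and 0.018. For the combination against Wnt3a, the 15 genes had a median of -0.0018 (7 higher, 8 lower) and the 45 a median of 0.024 (33 higher, 12 lower). These are descriptions without a test, and a match in a window is not a binding site.

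Most of these genes stood at high levels in these cells, over a wide range. The median level of the 71 genes was 22.9 FPKM, against 10.4 FPKM over all tested genes, and 59 of them (83.1%) reached 10 FPKM, against 50.7% of all. Together the 77 genes took 0.573 to 0.603% of the reads of a library. Ran, the GTPase that drives nuclear transport, was highest at 266 FPKM, followed by Snu13 (115 FPKM), which binds the box C/D snoRNA fold, Csnk2b (108 FPKM), the regulatory subunit of casein kinase 2, Fbl (103 FPKM), the methyltransferase fibrillarin, and Eif6 (101 FPKM), which keeps the 60S subunit from joining too early. Spata5, the AAA ATPase now named Afg2a, was lowest of those tested at 0.908 FPKM, with the exonuclease gene Rexo5 at 1.07 FPKM and the export cofactor gene Nxt2 at 2.81 FPKM.

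The 6 genes that were not tested were close to 0. Fbll1 and Rpp25 each had 1 read in 1 of 12 libraries, Nxf3 had at most 7 reads in a library, Nxf7 at most 6, the pseudogene Rexo1l1-ps1 at most 5, and Rasl2-9, a relative of Ran, at most 3. In each of these families the expressed gene was another one: Fbl at 103 FPKM beside Fbll1, Nxf1 at 60.1 FPKM beside Nxf3 and Nxf7, and Rpp25l at 8.33 FPKM beside Rpp25. LOC100359574 (14.8 FPKM), which RefSeq lists as a pseudogene of Snu13, shares sequence with a gene at 115 FPKM, and its values are uncertain for that reason.

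Where both copies of a pair were expressed, their ratio was taken in each library. Nxt1 stood 9.96 to 12.9 times above Nxt2, Xrn2, the nuclear exonuclease, 4.64 to 5.49 times above the cytoplasmic Xrn1, and Gnl3, the nucleolar GTPase nucleostemin, 1.78 to 2.08 times above Gnl3l. The ratio of the kinases Riok2 and Riok1 was 1.41 to 1.77, and that of the catalytic subunits of casein kinase 2, Csnk2a1 and Csnk2a2, was 1.36 to 1.64. These ranges cover the 12 libraries and all 4 groups, and the first gene of each pair was higher in every library.

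Replicates of these genes also lay close together. The residual SD on the log2 scale had a median of 0.058 over the 71 genes, against 0.075 over all tested genes. At a mean of 5 FPKM or more it was 0.057 against 0.061. The smallest total over the 12 libraries was 3723 reads for a tested member.

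**Figure D1:**
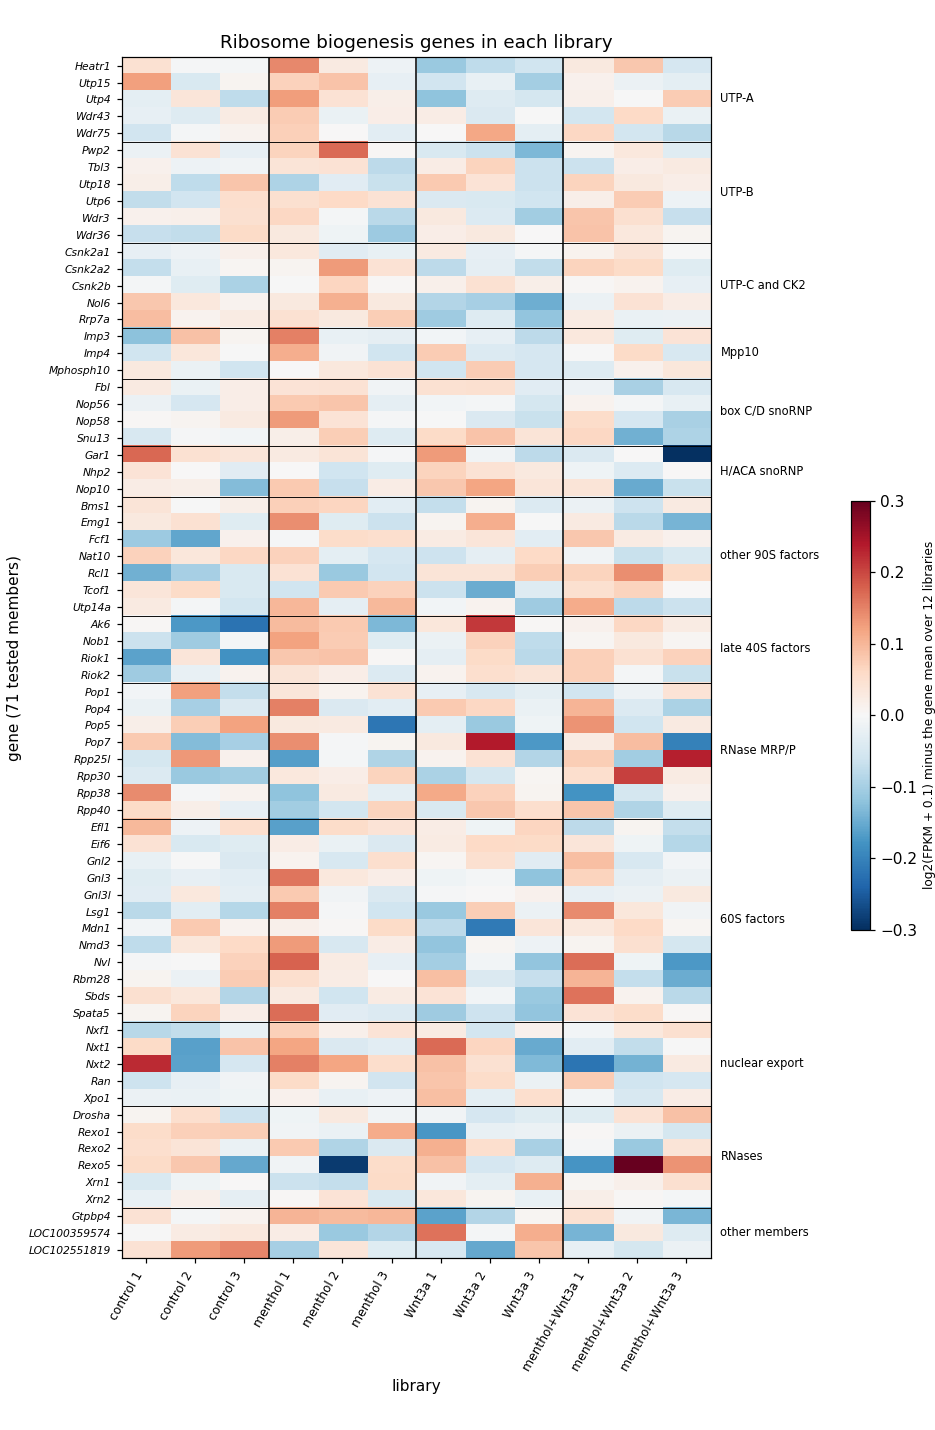
Each row is one of 71 tested ribosome biogenesis genes, ordered by role, and each column is one of the 12 libraries; colour gives log2(FPKM + 0.1) minus the mean of that gene over the 12 libraries, and the scale ends at 0.3 either way. Most cells are pale, and the first menthol library is the one with the most genes above their own mean (58 of 71).

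The comparison of menthol with control asked what the TRPM8 agonist did on its own. Of the 71 genes, 50 were higher and 21 lower with menthol, with a median log2 change of 0.018 and a range of -0.14 to 0.16, while 49.1% of all tested genes were higher and their median was -0.0016. None had an adjusted p under 0.05 (limma, smallest 0.359), against 0.105% of all genes. At an unadjusted p under 0.05 there were 9 (8 higher, 1 lower), which is 12.7% of the members against 9.34% of all genes, and limma voom on the recovered read counts passed 0 members after adjustment, against 0.524% of all genes. All 3 menthol libraries lay above all 3 control libraries for 6 genes (Csnk2a2, Csnk2b, Gnl3, Gtpbp4, Nxf1 and Rpp30; 7.48% of all genes did so) and below them for LOC102551819 alone (8.38% of all genes).

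The count of 50 leaned most on 1 library. In the first menthol library, 58 of 71 genes were above their own mean of 12 libraries, and in the other two menthol libraries 40 and 31 were. Control libraries had 36, 31 and 35, Wnt3a libraries 37, 34 and 22, and libraries with the combination 48, 35 and 30. Without the first menthol library 40 of 71 genes were higher than in control, with a median of 0.0054, and with each library centred on its own median 46 were. Without the second menthol library 50 were higher (median 0.028), and without the third 52 (median 0.039).

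**Figure D2:**
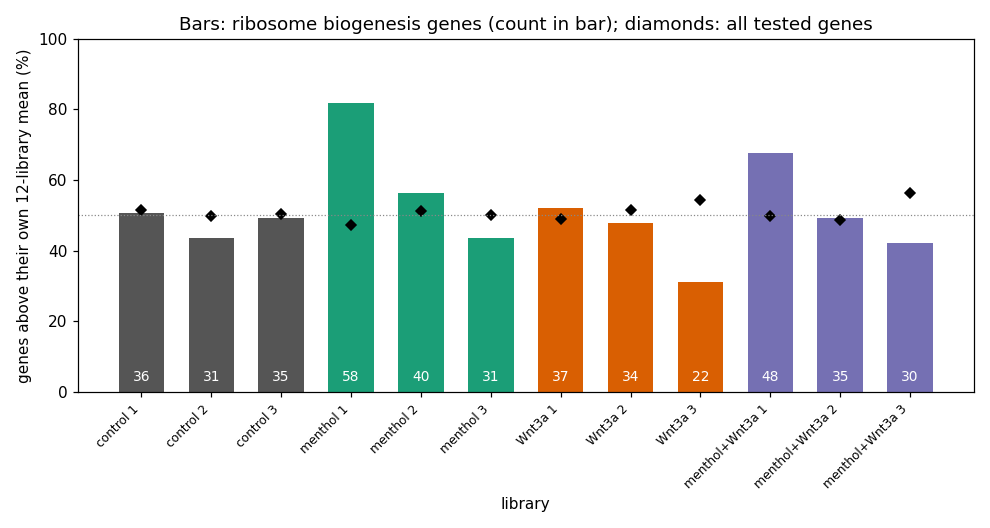
Bars give, for each library, the percentage of the 71 ribosome biogenesis genes above their own mean over the 12 libraries, with the number of genes written in the bar; diamonds give the same percentage over all 11451 tested genes. The first menthol library stands at 58 genes, while the diamonds lie between 47.4 and 56.2%.

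The summed level of the fibroblast markers Col1a1, Col1a2, Col3a1, Dcn, Lum and Pdgfra moved with the groups. It was 136 to 145 FPKM in the control libraries, 124 to 128 in those with menthol, 129 to 135 in those with Wnt3a and 124 to 126 with the combination. Col1a2 made up most of it, at 109 to 126 FPKM, while Dcn and Lum had at most 22 reads in a library. The summed neuron markers were 105 to 114 FPKM in control, 111 to 122 with menthol, 114 to 122 with Wnt3a and 115 to 127 with the combination, and skeletal muscle, immune and Schwann cell markers summed to at most 9.47, 4.17 and 1.10 FPKM in any library, with Myh2, Ptprc and Sox10 at 0 to 2 reads. Their part in the result was not tested.

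Nxf1, the main export receptor for messenger RNA, had the smallest p for menthol. Its level was 56.7, 57.1 and 59.2 FPKM in control and 63.1, 60.7 and 61.8 FPKM with menthol. Every menthol library was above every control library. The log2 change was 0.10 (SE 0.032, limma adjusted p = 0.359). Fcf1, a nuclease-like protein of the small subunit processome, had a log2 change of 0.12 (adjusted p = 0.391), and Riok1, a kinase of late 40S maturation, of 0.16 (adjusted p = 0.391), and for both the groups overlapped.

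The comparison of Wnt3a with control asked what the Wnt ligand did. Here 37 genes were higher and 34 lower, with a median log2 change of 0.0046 and a range of -0.15 to 0.21, beside 51.6% of all tested genes higher. None passed the adjusted p (limma, smallest 0.0890), against 0.437% of all genes. There were 8 genes at an unadjusted p under 0.05 (4 higher, 4 lower), 11.3% against 15.1% of all genes. The libraries did not overlap for 6 higher and 9 lower genes, and 10.1% of all genes lay apart in each direction. In limma voom 1 member, Nol6, passed adjustment (1.41% of the members), against 2.65% of all genes.

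Nol6 and Rrp7a, whose proteins form the UTP-C complex of the small subunit processome with casein kinase 2, were both lower with Wnt3a. Nol6 (NCBI gene 313167) measured 24.0, 23.2 and 22.9 FPKM in the control libraries, 23.2, 24.4 and 23.1 in those with menthol, 21.3, 21.2 and 20.5 in those with Wnt3a, and 22.4, 23.4 and 23.1 with the combination. The 3 Wnt3a libraries were the lowest of the 12. The log2 change with Wnt3a was -0.15 (95% interval -0.23 to -0.074), or 0.899-fold, at a limma adjusted p of 0.0890, which ranged from 0.0250 (voom) to 0.291 (without the first control library) over the alternatives. Rrp7a (NCBI gene 362967) measured 20.1, 19.0 and 19.1 FPKM in the control libraries, 19.4, 19.2 and 19.8 in those with menthol, 17.5, 18.3 and 17.3 in those with Wnt3a, and 19.1, 18.5 and 18.5 with the combination. Again the 3 Wnt3a libraries were the lowest of the 12, with a log2 change of -0.13 (95% interval -0.21 to -0.051, adjusted p = 0.126).

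Of the casein kinase 2 subunits, Csnk2b was higher with Wnt3a by 0.072 on the log2 scale (adjusted p = 0.272), and Csnk2a1 stood at 66.3 ± 0.945 FPKM in control and 66.7 ± 1.24 with Wnt3a (SD, n = 3). Csnk2a2 was at 43.0 ± 1.16 FPKM in control and 42.1 ± 0.850 with Wnt3a (SD, n = 3), a log2 change of -0.031. Whether the subunits differed from Nol6 and Rrp7a in their response was not tested. Casein kinase 2 is known to act in many places besides the processome.

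Rcl1 (NCBI gene 309301), a cyclase-like protein that works with Bms1 in the processome, was higher with Wnt3a. Its level was 20.5, 21.2 and 22.0 FPKM in the control libraries, 23.4, 21.0 and 21.8 in those with menthol, 23.3, 23.3 and 23.9 in those with Wnt3a, and 23.7, 25.0 and 23.6 with the combination. The control libraries lay below all libraries with Wnt3a, while 1 menthol library overlapped the Wnt3a libraries. The log2 change was 0.15 for Wnt3a against control (SE 0.044, adjusted p = 0.138) and 0.18 for the combination against control (SE 0.044, adjusted p = 0.0759).

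**Figure D3:**
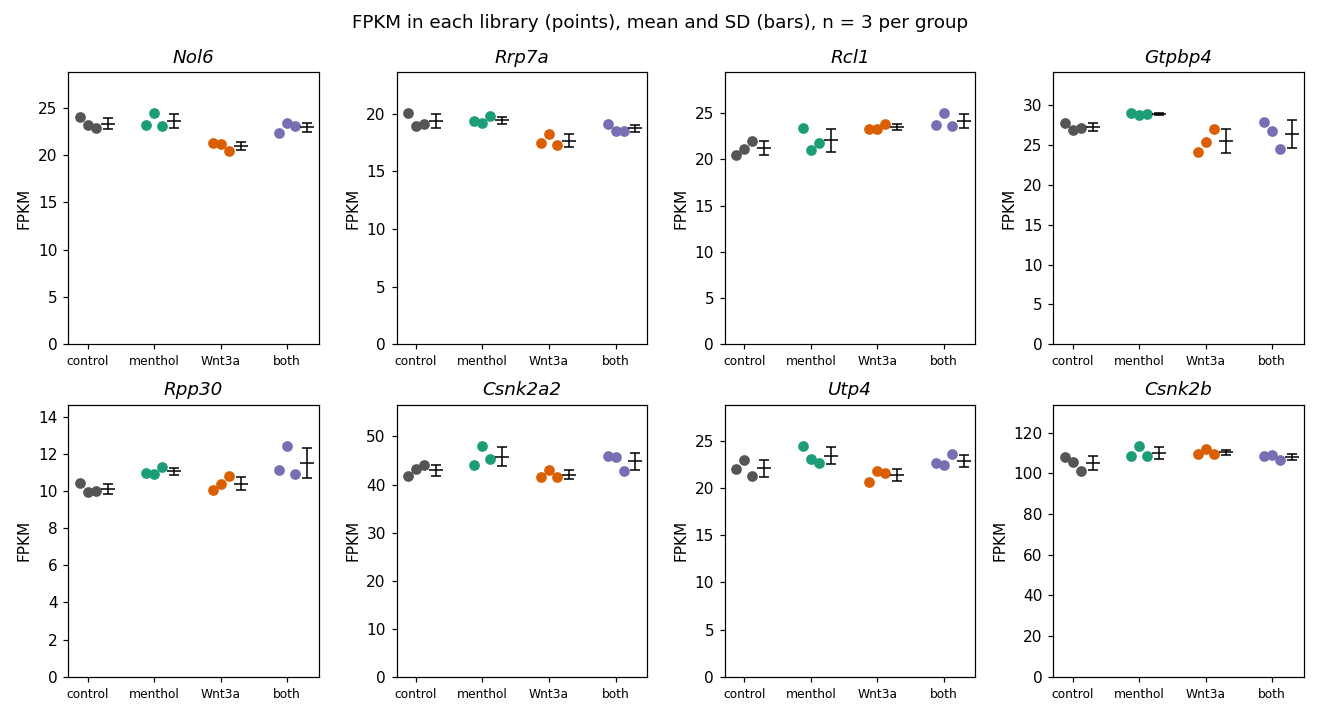
Points give the FPKM of 8 members in each of the 12 libraries, with the mean and SD of the 3 libraries of a group as the bar to the right; "both" is menthol with Wnt3a, and each axis starts at 0. The Wnt3a libraries of Nol6 and Rrp7a lie lowest of the 4 groups, and all differences are small beside the level itself.

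Menthol with Wnt3a was compared with Wnt3a to see what menthol did in stimulated cells. Of the 71 genes, 44 were higher and 27 lower, with a median log2 change of 0.017 and a range of -0.14 to 0.14. None passed the adjusted p (limma, smallest 0.162; 0.0524% of all genes), and 12 had an unadjusted p under 0.05 (6 higher, 6 lower), 16.9% against 14.5% of all genes. By voom 0 passed adjustment, against 1.25% of all genes. The libraries lay apart upward for 9 genes (9.11% of all genes) and downward for 2 (8.57% of all genes).

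Nol6 was higher in the combination than with Wnt3a alone by 0.13 on the log2 scale (SE 0.037, adjusted p = 0.162), and Rrp7a by 0.083 (adjusted p = 0.332), with the libraries apart for both. This comparison and that of Wnt3a with control share the 3 Wnt3a libraries, so a low value there enters both. The combination stood at 22.9 ± 0.498 FPKM for Nol6, beside 23.4 ± 0.596 in control (SD, n = 3). Rpp30, a protein of the RNase P and MRP complexes that cut precursor RNAs, was at 10.1, 10.4 and 10.8 FPKM with Wnt3a and 11.1, 12.4 and 10.9 with the combination (log2 change 0.14, adjusted p = 0.253). Snu13 was lower (log2 change -0.12, adjusted p = 0.259), and its libraries overlapped.

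The combination against control gave 40 genes higher and 31 lower, with a median log2 change of 0.0049 and a range of -0.20 to 0.18. None passed the adjusted p (limma, smallest 0.0759; 0.830% of all genes), 8 had an unadjusted p under 0.05 (13.5% of all genes did), and by voom 0 passed adjustment, against 2.28% of all genes. The libraries lay apart upward for 8 genes (10.5% of all genes) and downward for 4 (9.98%). Rcl1, Rpp30 and Fcf1 had the smallest p, all higher. Gar1, a core protein of the H/ACA snoRNPs, was at 31.1, 28.5 and 28.3 FPKM in control and 26.8, 27.6 and 22.2 with the combination. Its log2 change of -0.20 (SE 0.073, adjusted p = 0.231) was the lowest of the members, and 1 library with the combination lay well below the other two.

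Against menthol alone, the combination was higher for 25 genes and lower for 46, with a median log2 change of -0.022. With libraries centred on their median only 16 were higher, and without the first menthol library the median was -0.00066. None passed the adjusted p (limma, smallest 0.519; 0.0961% of all genes), 3 had an unadjusted p under 0.05 (Rcl1, Gtpbp4 and Fbl, 4.23% against 6.72% of all genes), and by voom 0 passed adjustment, against 0.288% of all genes. The libraries lay apart upward for 2 genes (5.97% of all genes) and downward for 4 (5.31%). Gtpbp4, a GTPase of 60S assembly, was at 29.0, 28.8 and 28.9 FPKM with menthol and 27.9, 26.8 and 24.5 with the combination (log2 change -0.13, adjusted p = 0.589).

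Averaged over cells with and without Wnt3a, menthol left 46 genes higher and 25 lower (median log2 change 0.016, 49.4% of all tested genes higher). None passed the adjusted p (limma, smallest 0.102; 1.15% of all genes), 13 had an unadjusted p under 0.05 (10 higher, 3 lower), 18.3% against 15.5% of all genes, and by voom 0 passed adjustment, against 2.64% of all genes. Leaving out 1 library gave 39 to 49 members higher, the lowest without the first menthol library (39, median 0.0067). Without both menthol-treated libraries numbered 1 there were 37 (median 0.00084). Rpp30 led with a log2 change of 0.13 (SE 0.037, adjusted p = 0.102), and was at 10.4, 9.94 and 9.99 FPKM in control and 11.0, 10.9 and 11.3 with menthol. Csnk2a2 followed with 0.090 (adjusted p = 0.145) and Utp4, a subunit of the UTP-A complex that joins transcription to processing, with 0.093 (adjusted p = 0.163).

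Averaged over cells with and without menthol, Wnt3a left 32 genes higher and 39 lower (median log2 change -0.0074). None passed the adjusted p (limma, smallest 0.0577; 0.803% of all genes), and 9 had an unadjusted p under 0.05 (2 higher, 7 lower), 12.7% against 14.2% of all genes. By voom 2 members, Rcl1 and Nol6, passed adjustment (2.82%), against 2.44% of all genes. Rcl1 was higher by 0.14 on the log2 scale (95% interval 0.072 to 0.20), with an adjusted p of 0.0577 that ranged from 0.0263 to 0.149 over the alternatives. It fell to 0.0263 without the first menthol library. Nol6 had a log2 change of -0.096 (adjusted p = 0.108) and Rrp7a of -0.093 (adjusted p = 0.126).

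**Figure D4:**
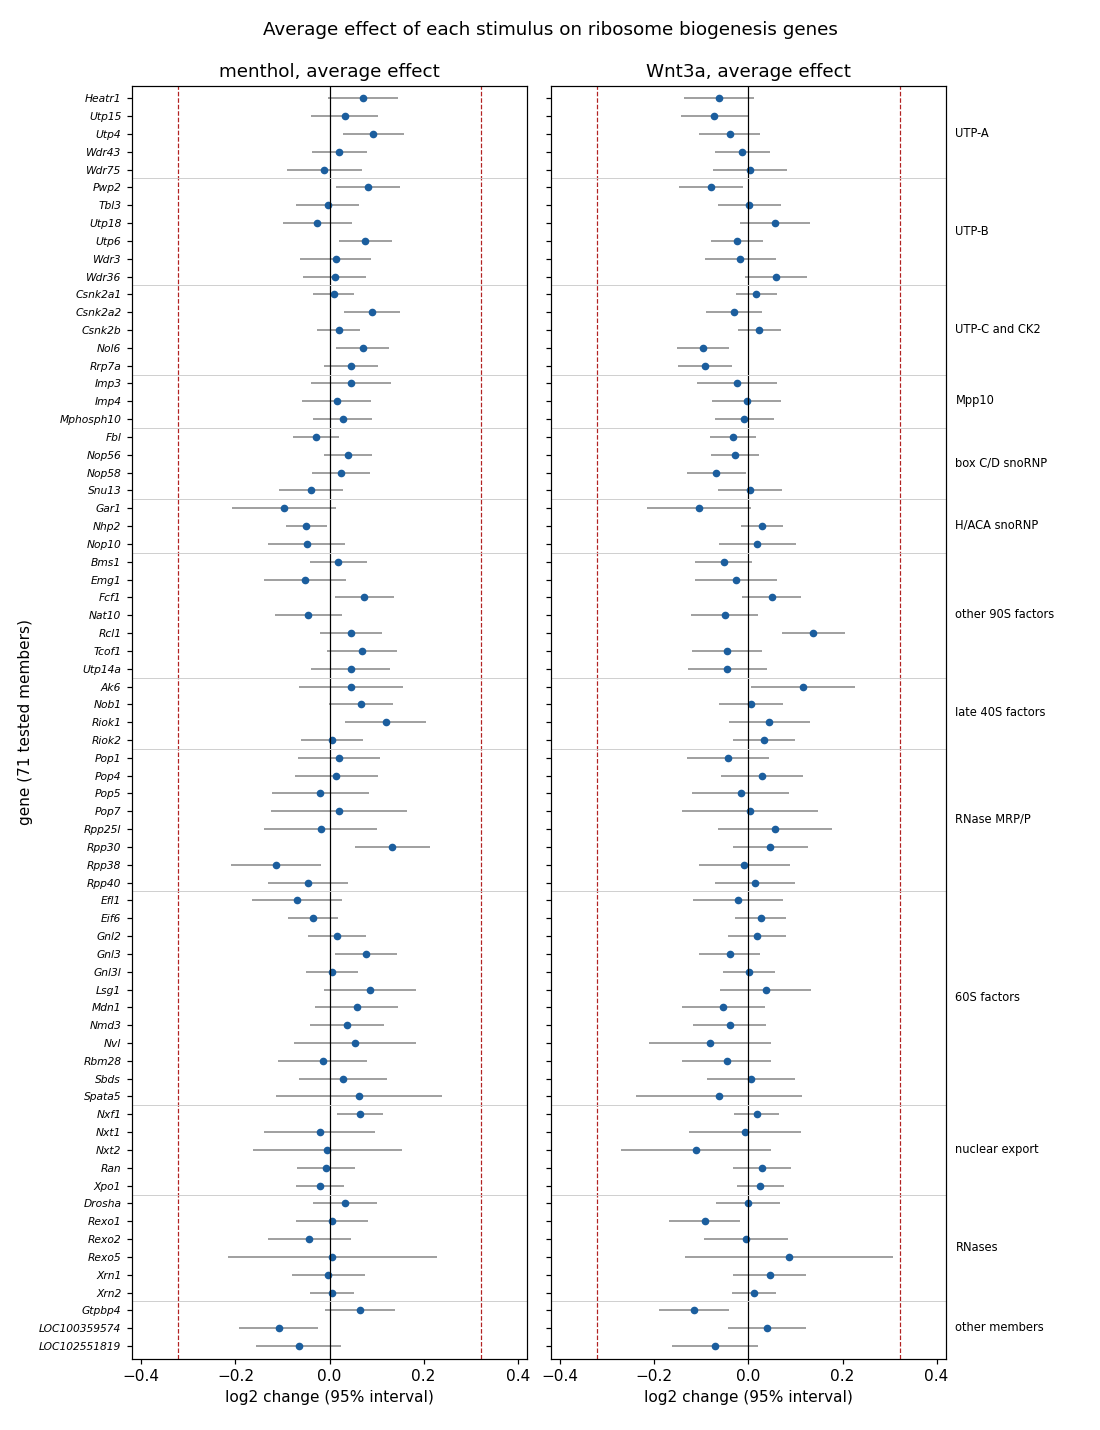
Points give the log2 change of each of the 71 genes for the average effect of menthol (left) and of Wnt3a (right), ordered by role, with bars for the unadjusted 95% interval; dashed lines mark a change of 1.25-fold. All 71 intervals lie between the dashed lines in both panels.

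The interaction of menthol and Wnt3a is the difference between the effect of menthol with and without Wnt3a. It was higher for 29 genes and lower for 42 (median -0.018), with none past the adjusted p (limma, smallest 0.715; 0% of all genes) and 5 at an unadjusted p under 0.05 (7.04% against 6.99% of all genes), and by voom 0 members passed, as did 0% of all genes. Snu13, Nop10 and Csnk2b had the smallest p, all with a negative term (-0.16, -0.18 and -0.098). For any difference among the 4 groups, 11 of 71 genes had an unadjusted p under 0.05 (15.5% against 17.4% of all genes) and none passed adjustment in limma (smallest 0.0889, Nol6; 0.978% of all genes), while voom passed 1, Nol6 (1.41% of the members against 4.37% of all genes).

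How large a change these libraries leave room for was read from the intervals. The 95% interval, unadjusted for the number of genes, lay within 1.25-fold in both directions for 69 of 71 genes for menthol and for Wnt3a against control, for 68 in each of the other pairs, for all 71 for both average effects, and for 61 for the interaction. Over all tested genes the share was 87.6% for the average effect of menthol and 88.3% for that of Wnt3a. The widest bounds belonged to the low genes Rexo5 and Spata5, and for Rexo5 reached 1.40-fold in the combination against menthol and 1.52-fold for the interaction. No member had an estimated change over 1.25-fold in any comparison. The intervals are the result for the remaining genes, since a p above the threshold does not show that a level stayed the same.

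By role, the UTP-A subunits, whose complex is the first to bind the precursor, had 5 of 5 higher with menthol (median log2 change 0.038) and 2 of 5 higher with Wnt3a (median -0.048), none past the adjusted p. Without the first menthol library 4 of 5 were higher with menthol (median 0.0034), without the second 4 of 5 (0.053) and without the third 5 of 5 (0.055). The UTP-B complex, which scaffolds the processome, had 3 of 6 higher with menthol (median 0.0013) and 3 of 6 with Wnt3a. For menthol the count was 2 of 6 without the first menthol library (median -0.023) or the second (-0.014), and 5 of 6 without the third (0.041). The Mpp10 complex (Mphosph10, Imp3 and Imp4) had 3 of 3 higher with menthol, by 0.022 to 0.043 on the log2 scale. The count was 1 of 3 without the first menthol library (median -0.016), and 3 of 3 without the second or the third. Of the other factors of the 90S particle, 6 of 7 were higher with menthol and 3 of 7 with Wnt3a. For menthol the count was 4 of 7 without the first menthol library and 5 of 7 without the second or the third. The acetyltransferase gene Nat10 was the one with a lower value for menthol (log2 change -0.059).

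The core proteins of the box C/D snoRNPs, which guide ribose methylation, had 4 of 4 tested members higher with menthol, by 0.016 to 0.062, and 4 of 4 lower in the combination than with menthol, with log2 changes of -0.086 to -0.053. Both comparisons share the 3 menthol libraries, whose medians over these members stood 0.060, 0.059 and -0.018 from the mean of 12 libraries on the log2 scale. Without the first menthol library the median against control was 0.023, without the second 0.026 and without the third 0.069. Fbl stood at 104 ± 1.84 FPKM in the control libraries, 105 ± 2.16 in those with menthol, 105 ± 3.36 in those with Wnt3a and 99.6 ± 2.91 with the combination (SD, n = 3). Nop56 and Nop58, which hold the particle together, were at 63.2 ± 1.53 and 86.6 ± 0.780 FPKM in control (SD, n = 3). Of the H/ACA proteins, whose particles make pseudouridine, Nhp2 was at 74.1 ± 1.88 FPKM in control and 73.1 ± 1.10 with the combination, and Nop10 at 51.3 ± 3.04 and 50.2 ± 3.31 (SD, n = 3). No snoRNP protein passed the adjusted p in any comparison.

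The factors of late 40S maturation, Nob1, which makes the last cut of 18S RNA, the kinases Riok1 and Riok2, and the adenylate kinase Ak6, had 4 of 4 higher than control with menthol (median log2 change 0.13), with Wnt3a (0.079) and with the combination (0.12). These comparisons share the control libraries, and the smallest adjusted p was 0.189 (Ak6 with Wnt3a). Ak6 measured 17.5, 15.5 and 14.9 FPKM in the control libraries, 18.6, 18.4 and 15.9 in those with menthol, 17.8, 20.2 and 17.5 in those with Wnt3a, and 17.6, 18.2 and 17.7 with the combination, so that 2 of 3 control libraries were the lowest of the 12. Of the 60S factors, such as Nmd3, the adaptor for export, and Sbds and Efl1, which release Eif6, 7 of 12 were higher with menthol and 4 of 12 with Wnt3a. The RNase P and MRP proteins had 4 of 8 higher with menthol and the exonucleases and RNases 2 of 6, and the nuclear export genes 5 of 5, by 0.0083 to 0.10. Without the first menthol library 5 of 12 60S factors, 3 of 6 exonucleases and RNases and 3 of 5 export genes were higher with menthol. Without the second the counts were 11 of 12, 2 of 6 and 5 of 5, and without the third 9 of 12, 2 of 6 and 5 of 5.

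Genes of the same process that KEGG leaves out were counted as well. The lists held 60S assembly factors, further 90S and 40S factors, the RNA exosome, RNA polymerase I and nucleolar scaffold proteins. The Myc family and its partners, which are transcription factors and not assembly factors, were added, and 114 genes were tested in all. Of these, 88 were higher with menthol against control and 91 for its average effect (79.8% against 49.4% of all genes), made up of 39 of 44 factors of 60S assembly, 21 of 26 further 90S and 40S factors, 12 of 15 RNA polymerase I genes, 9 of 14 exosome genes, 5 of 6 scaffold genes and 5 of 9 genes of the Myc family. For Wnt3a against control 58 of 114 were higher, and for its average effect 42. In limma none passed the adjusted p (smallest 0.0568), with 18 at an unadjusted p under 0.05 for the average effect of menthol (15.8% against 15.5% of all genes) and 12 for that of Wnt3a (10.5% against 14.2%). In voom 3 passed for the average effect of menthol, 3 for Wnt3a against control (each 2.63%, against 2.64 and 2.65% of all genes), and 4 for the average effect of Wnt3a (3.51% against 2.44%). Leaving out 1 library gave 86 to 95 of 114 higher for the average effect of menthol, the lowest without the first menthol library (86). Without both menthol-treated libraries numbered 1 the count was 77.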

How the data were processed

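RNA from 12 libraries of ND7/23 cells, 3 in each of 4 groups, was sequenced, and group and replicate number came from the sample labels. The authors deposited FPKM values of 21556 genes in 1 column per library, not pooled. The submitters' processing notes name fastp, HISAT, HTSeq, R 3.2.0, DESeq2 and the rat build mRatBN7.2, and other versions are not given in the sources used here. FPKM scales each library by its own total, and when a handful of abundant genes rise, the values of all others come down.

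The values of a gene are whole multiples of what 1 read is worth, and whole read counts were recovered for 21556 of 21556 genes, within a relative distance of 1.2e-15. A check against a second value was not possible for the 1804 genes seen in a single library. Counting error alone is covered by these depths.

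Tests were run with limma 3.58.1 (R 4.3.3) on the 11451 genes whose FPKM averaged 0.5 or more. The 12 libraries entered 1 fit on log2(FPKM + 0.1) without a replicate block, with a variance trend. P-values were adjusted after Benjamini-Hochberg over these genes, which passed at an adjusted p under 0.05. A fold change on this scale understates the change of low genes. The pseudocount, the FPKM minimum, library centring, fits of the 2 groups compared, a replicate block, voom on the recovered counts and leaving out each library were alternatives, and leaving out both menthol-treated libraries numbered 1 was added after the values were seen.

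Named genes were the 3 with the smallest p in each comparison, the 5 highest and 3 lowest by level, snoRNP core proteins and paralogs. Others, such as Ak6 and Gtpbp4 beyond its own comparison, were named after their values were seen. The members, lists and tests were chosen with earlier results of these data known. Motifs were searched in RefSeq promoter windows of GRCr8, matched by NCBI gene ID. One marker gene is not reported here.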

Additional observations from a re-analysis of the deposited data

Results flagged for a closer look

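For Csnk2b, the regulatory subunit of casein kinase 2, the libraries with menthol lay apart in opposite directions in the absence and presence of Wnt3a. All 3 menthol libraries (108, 113 and 109 FPKM) lay above all 3 control libraries (108, 106 and 101 FPKM), and all 3 libraries with menthol and Wnt3a (109, 109 and 107 FPKM) lay below the 3 Wnt3a libraries (110, 112 and 110 FPKM). The gaps were narrow. The nearest libraries were at 108.0 (control) and 108.3 FPKM (menthol), and at 109.3 (combination) and 109.6 FPKM (Wnt3a). Csnk2b was picked among the members for this pattern, and the share of all tested genes with it was not counted. The interaction term was -0.098 on the log2 scale, with an adjusted p of 0.715 in limma, so the difference did not pass the threshold over all genes.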

How the results depend on the processing

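The count of 0 members past the adjusted p held in limma under every alternative for menthol against control, the combination against each other group, the average effect of menthol and the interaction. Limma voom on the recovered counts gave 1 member for Wnt3a against control, 2 for the average effect of Wnt3a and 1 for any difference. For the average effect of Wnt3a, leaving out 1 library gave 0 to 1 (1, Rcl1, without the first menthol library), and leaving out both menthol-treated libraries numbered 1 gave 1. With libraries centred on their median, 16 members were higher in the combination than with menthol. Leaving out 1 library moved the median log2 change over 0.0054 to 0.039 for menthol against control, -0.019 to 0.012 for Wnt3a against control and -0.034 to -0.00066 for the combination against menthol. It gave -0.0032 to 0.018 for the combination against control, 0.0062 to 0.026 against Wnt3a, 0.0067 to 0.023 for the average effect of menthol, -0.020 to 0.0038 for that of Wnt3a and -0.031 to -0.0040 for the interaction. Between replicates, the members' median had a pooled SD of 0.020. That is the spread of single libraries and not the error of a difference between group means, so it does not measure the error of these median changes. On leaving out 1 library the sign changed for Wnt3a against control, the combination against control and the average effect of Wnt3a. Over all tested genes, same-numbered libraries correlated at -0.055 to 0.15, with 1 of 18 pairs over 0.1. Among the members, the library numbered 1 had the highest median log2 deviation of its group each time. The values were 0.0458 (menthol), 0.0178 (combination), 0.0064 (Wnt3a) and 0.0029 (control). The library numbered 3 was lowest under each treatment (-0.0155 for menthol, -0.0338 for Wnt3a, -0.0160 for the combination), but not in control. Low correlations over all genes therefore do not settle whether the numbers pair the libraries. The replicate block left the count of members past the adjusted p at 0 in every comparison. With 3 libraries per group and a median residual SD of 0.058, changes of a few percent cannot be resolved.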

Other observations

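Myc, which encodes the factor best known for binding the CACGTG E-box, was chosen here after its values were seen. In limma its log2 change from control to Wnt3a was -0.19 (SE 0.041, adjusted p = 0.0767) and -0.12 for the average effect of Wnt3a (SE 0.029, adjusted p = 0.0726), neither past the threshold. Of the helicase and nucleolar genes outside the KEGG list, Ddx21 had a log2 change of -0.16 (limma adjusted p = 0.0952) and Mybbp1a of -0.11 (limma adjusted p = 0.0952) with Wnt3a against control. Tex10, a 60S assembly factor, had 0.12 for the average effect of menthol (limma adjusted p = 0.0568). By voom 3 of the 114 genes outside the list passed for Wnt3a against control, 4 for its average effect and 3 for that of menthol, and they are not named here.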
